A study of Homo sapiens with 12 samples.

Results

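Total RNA of U87 cells, a line derived from a human glioblastoma, was measured after finasteride (F) and after vehicle (V). The 6 arrays compared here are the 3 titled F and the 3 titled V, of 12 arrays in the series. The 6 others come from cells given allopregnanolone (3α-THP) or progesterone (P4). Genes were taken from every row of the deposited table that the array's annotation gives a gene symbol, which left 21214 of 33297 transcript clusters, sets of probes along a gene that give 1 value together.

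F was given at 100 nM, and 3α-THP and P4 at 10 nM each, so that the doses differ. V cells received DMSO alone, at 0.1% in the sample characteristics and in the study's methods and at 10% in the protocol of the labels. All cells were collected after 72 h, in medium without phenol red and with serum stripped by charcoal, a step meant to remove steroids. Each treatment had 3 biological replicates, numbered 1 to 3 in the titles, and every triplet of values below stands in that order. The study used 1 cell line, so that the arrays describe U87 cells and not glioblastomas at large.

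F inhibits the 5α-reductases, the enzymes that turn testosterone into dihydrotestosterone and progesterone into dihydroprogesterone, from which 3α-THP is made. It is used against enlargement of the prostate and loss of hair. Its main target in human tissue is the type 2 enzyme, encoded by SRD5A2, and it acts less on the type 1 enzyme, encoded by SRD5A1. The substrates of these enzymes in the medium and in the cells were not measured. The comparison asks which transcripts differ in U87 cells when the inhibitor is given alone.

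The values are log2 levels normalized between arrays, with a median of 6.35 to 6.40 on every array. On the F and V arrays the markers of the line were read at almost equal levels. VIM, which encodes vimentin, averaged 12.49 on the F arrays and 12.50 on the V arrays, CD44 averaged 11.87 and 11.81, and EGFR 9.03 and 8.99. The glial markers S100B (3.76 with F and 3.78 with V) and AQP4 (2.90 and 3.00) lay near the bottom of the range, and GFAP was at 6.19 and 6.15. SLC1A3 of the same list averaged 9.51 on both, and SOX9 7.18 and 7.16. Of the 14 astroglial and glioma markers, 3 averaged under 5 with F. PTPRC, which marks white blood cells, was at 2.95 and 2.97. In the same list of microglia and macrophage markers CD68 was at 10.87 and 10.80 and CSF1R at 6.74 and 6.84. In that list 4 of 7 markers averaged under 5 with F. Of 8 lists of cell type markers, including neurons, microglia, endothelium and fibroblasts, none had a member past the threshold. In a bulk sample, fewer cells of a kind and less RNA per cell cannot be told apart.

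With F, 81 clusters rose and 3 fell at the threshold of the study's methods, a fold change over 1.5 with an unadjusted p under 0.05 in limma. These are 0.382% and 0.0141% of the clusters tested, and 0.396% together. An unadjusted p under 0.05 at any fold was reached by 995 clusters, or 4.69%, and by 8.54% with the replicate number as a block. After Benjamini-Hochberg adjustment over all 21214 clusters, 1 cluster passed in limma, or 0.00471%. The rises therefore stand at the unadjusted threshold, with adjusted p values of 0.833 to 0.999 in limma for every gene named below as rising or falling, except where another value is given. Among the 12083 clusters with no gene name, which are not described here, 1.9% passed. Of the 81 clusters that rose, 74 carry 1 gene, and these are 73 genes because both clusters of ATRX rose. In IGSF9B and KCNMB3 a brighter cluster of the same gene did not pass, which leaves 71 genes that rose with their brightest cluster. The 7 other clusters carry several genes each, mostly near copies of the ANKRD36, ANKRD20A, RBMY and zinc finger families.

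The largest rise was in GCC2, a golgin that tethers vesicles at the trans-Golgi network. Its log2 values were 8.95, 7.91 and 9.13 on the F arrays, against 7.35, 7.78 and 7.60 on the V arrays. All 3 F arrays lay above the 3 V arrays, at a log2 fold change of 1.09 (SE 0.295), which is 2.13-fold. In EEA1, which tethers early endosomes, the F arrays read 7.90, 7.03 and 8.31 and the V arrays 6.55, 7.07 and 6.39. Here F replicate 2 lay just below V replicate 2, and the groups overlapped (log2 fold change 1.08, SE 0.322). MNS1, a filament protein of sperm and cilia, read 6.52, 6.50 and 6.86 with F and 5.23, 6.36 and 5.66 with V (log2 fold change 0.88), and UACA, a coiled-coil protein with ankyrin repeats, read 7.55, 6.85 and 7.78 with F and 6.28, 6.74 and 6.57 with V (0.86). Neither of these 2 overlapped. In 43 of the 81 clusters that rose, and in all 3 that fell, the 3 F arrays did not overlap the 3 V arrays. Over all tested clusters 9.11% did not overlap.

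**Figure D1:**
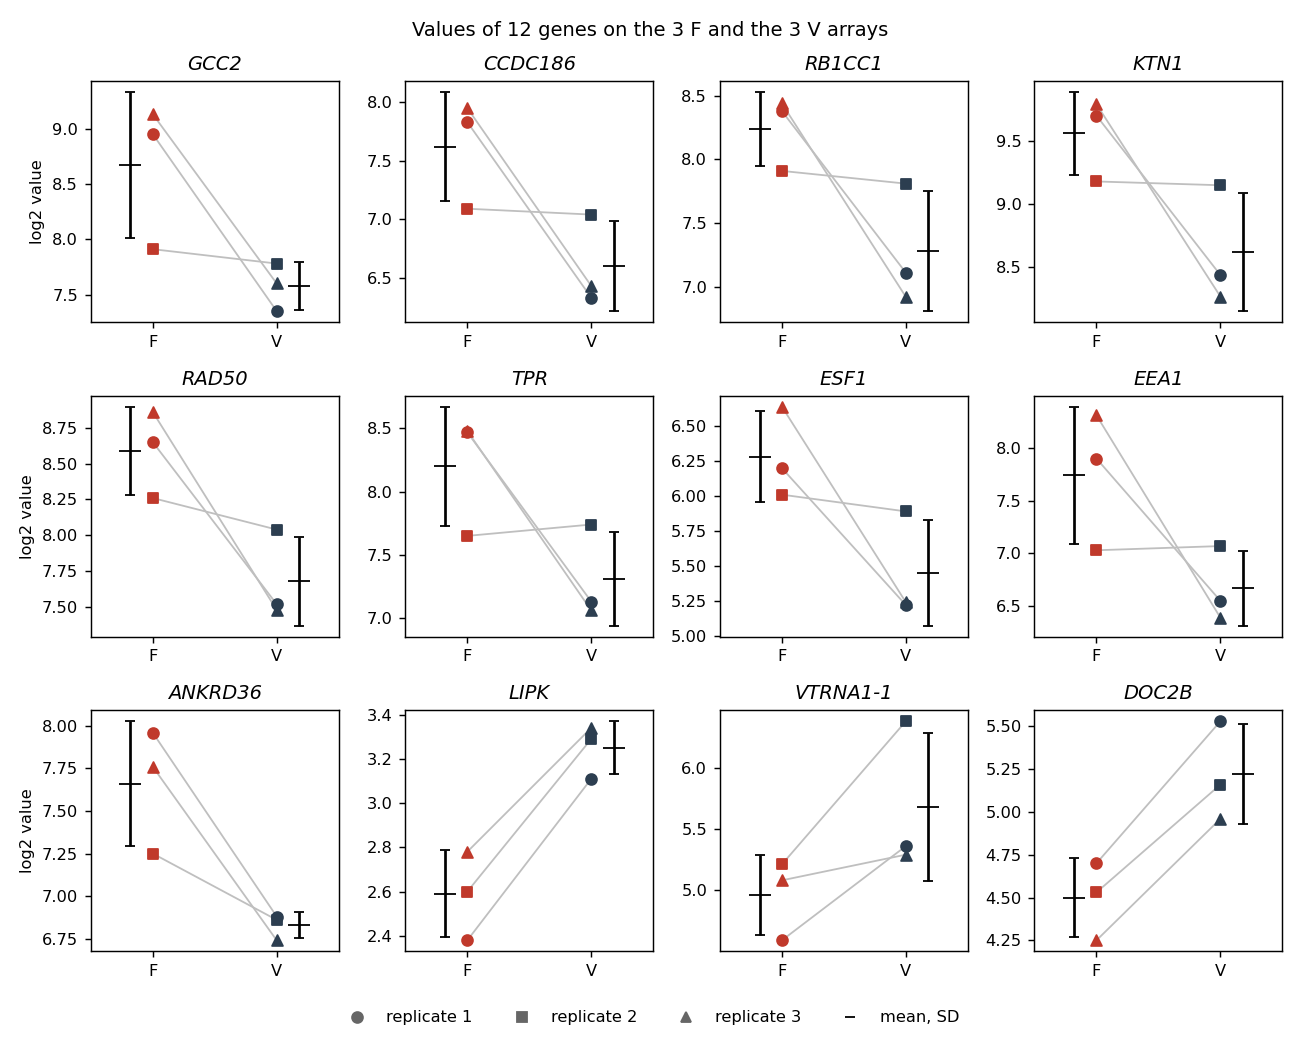
Log2 values of 12 genes on the 3 F arrays (red, left) and the 3 V arrays (dark, right) of each panel, with grey lines between arrays of the same replicate number and the mean and SD beside them. In the rising genes of the upper 2 rows the squares of replicate 2 lie close together, as for GCC2 at 7.91 with F and 7.78 with V, while circles and triangles lie far apart.

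The rise was carried by replicates 1 and 3. Across the 81 clusters the difference between the F array and the V array of the same number had a median of 0.98 on the log2 scale in replicate 1 and of 1.15 in replicate 3, and it was positive in 81 of 81 clusters in both. In replicate 2 its median was 0.06, with 52 clusters above 0 and 29 below. The 81 clusters were chosen on the mean of these same differences, which favors positive signs. Clusters read on the same arrays are also not replicates of each other. A difference over 1.5-fold was reached by 74 clusters in replicate 1, 5 in replicate 2 and 80 in replicate 3, and replicate 2 had the smallest of the 3 differences in 77 clusters. Over all tested clusters the medians were -0.03, 0.00 and -0.03. Higher by over 1.5-fold were 0.995% of all clusters in replicate 1, 0.297% in replicate 2 and 1.61% in replicate 3, and lower by as much were 0.368%, 0.297% and 0.372%.

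Both arrays of replicate 2 took part in this. The median level of the 81 clusters was 7.71, 7.12 and 7.81 on the F arrays and 6.56, 7.08 and 6.57 on the V arrays, so that F replicate 2 was the lowest of the F arrays and V replicate 2 the highest of the V arrays. Without F replicate 2 the count past the threshold was 167 in place of 84, and without V replicate 2 it was 149. Without F replicate 3 it was 44. With all 4 arrays numbered 2 left out, 220 clusters passed, of which 212 rose. The direction of the 84 clusters, which were chosen on these arrays, was the same in all these fits. With the replicate number as a block, 90 clusters passed the threshold (0.424%), 87 of them higher, and these include all 84. At the adjusted p 2 clusters passed with the block (0.00943%), and 178 did with the block and without V replicate 2. The labels name no batch, and what set replicate 2 apart was not tested.

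**Figure D2:**
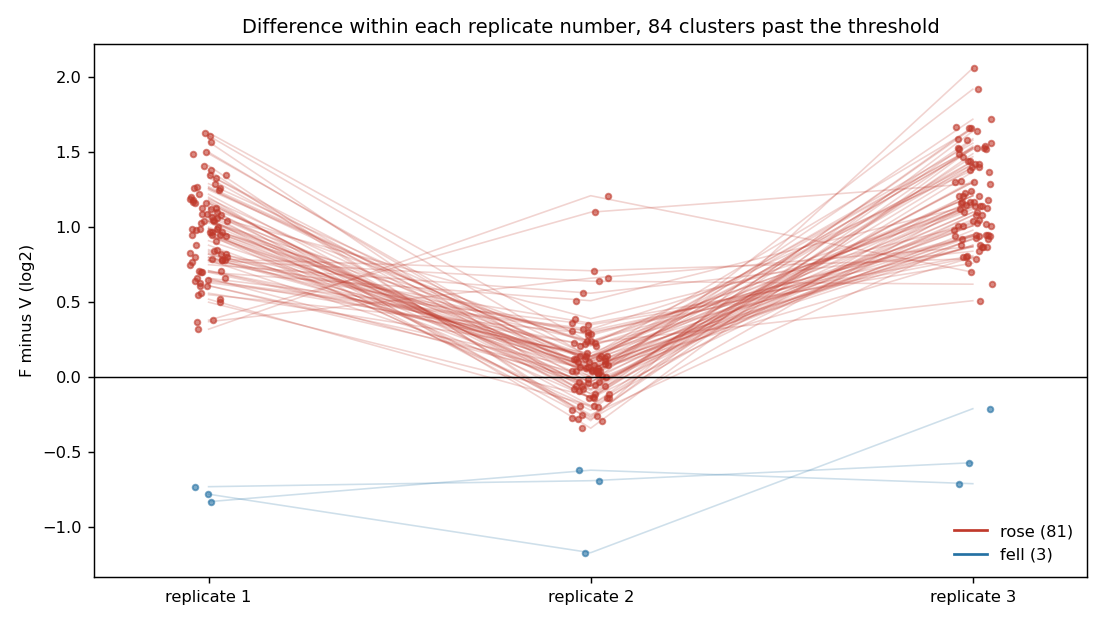
Difference between the F and the V array of the same replicate number (y axis, log2) for the 84 clusters past the threshold, with lines joining the values of 1 cluster. The 81 clusters that rose (red) have medians of 0.98, 0.06 and 1.15, and the 3 that fell (blue) lie below 0 in every replicate.

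Genes of Golgi tethering made up one group of the rises. Golgins are long coiled-coil proteins that reach out from Golgi membranes and catch vesicles. This gene list and those below were chosen with earlier results of these data known. Their counts beside all genes are therefore descriptions and no independent evidence. Of 25 measured genes of golgins and Golgi tethers, 6 rose, none fell and 19 did not pass, with a median log2 fold change of 0.07, beside -0.02 over all 18417 genes with a cluster of their own, of which 71 rose and 2 fell. CCDC186, which takes part in the making of dense-core vesicles at the Golgi, read 7.83, 7.09 and 7.95 with F and 6.33, 7.04 and 6.43 with V. Its groups did not overlap, although replicate 2 differed by only 0.04 (log2 fold change 1.02, SE 0.248). Replicates 1 and 3 differed by 1.49 and 1.52.

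The other golgins repeated this shape. TRIP11, the golgin of the cis-Golgi known as GMAP-210, read 8.76, 7.70 and 9.16 with F and 7.38, 7.97 and 7.52 with V, with replicate 2 lower with F (log2 fold change 0.92). GOLGA4, which binds the trans-Golgi through its GRIP domain, rose by 0.88, GOLGB1, the large golgin giantin, by 0.78 and TMF1 by 0.60. CCDC91, which works with the GGA adaptors of the trans-Golgi, had 0.53 and did not pass. Without F replicate 3 the log2 fold changes of TRIP11, GOLGA4, GOLGB1 and TMF1 were 0.60, 0.58, 0.57 and 0.45, and none of the 4 passed. GOLGB1 and TMF1 were also lost without V replicate 3 (0.65 and 0.57), GOLGB1 without F replicate 1 (0.64) and TMF1 without V replicate 1 (0.54). GCC2 and CCDC186 passed without any 1 of the 6 F and V arrays. The subunits of the COG complex, which also tether vesicles, were in the same list, and none of them passed.

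Tethers of the endosome and the endoplasmic reticulum were fewer. Of 24 genes of early endosome tethering and sorting 2 rose, EEA1 and CCDC88A, and the median was 0.02. CCDC88A, whose product girdin binds actin, read 8.30, 7.36 and 8.55 with F and 6.80, 7.36 and 6.83 with V, with equal values in replicate 2 (log2 fold change 1.07, SE 0.302). KTN1, which encodes the kinesin-binding membrane protein kinectin, was the single one of 14 genes that shape the endoplasmic reticulum to rise. It read 9.70, 9.18 and 9.79 with F and 8.44, 9.15 and 8.27 with V (log2 fold change 0.94, SE 0.259). EEA1, CCDC88A and KTN1 passed the threshold without any 1 of the 6 arrays.

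The sequences before the starts of GCC2 and CCDC186, the genes of Golgi tethering with the largest rises, are shown to give the letters in which the motifs below were counted. They are the 250 bases before each start in RefSeq (GRCh38.p14), on the strand of the gene, and the capitals mark CCAAT and TGACG, read on either strand. The first is the motif of CCAAT boxes and the second the core of a CREB site, and these motifs do not overlap each other. The sequence of GCC2 lies at chr2:108448956-108449205 (+) and that of CCDC186 at chr10:114174221-114174470 (-).
GCC2: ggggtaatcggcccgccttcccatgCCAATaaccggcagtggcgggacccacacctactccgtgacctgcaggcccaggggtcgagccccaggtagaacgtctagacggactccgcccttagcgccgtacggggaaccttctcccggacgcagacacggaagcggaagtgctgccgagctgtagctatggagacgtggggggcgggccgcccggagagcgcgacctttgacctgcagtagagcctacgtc
CCDC186: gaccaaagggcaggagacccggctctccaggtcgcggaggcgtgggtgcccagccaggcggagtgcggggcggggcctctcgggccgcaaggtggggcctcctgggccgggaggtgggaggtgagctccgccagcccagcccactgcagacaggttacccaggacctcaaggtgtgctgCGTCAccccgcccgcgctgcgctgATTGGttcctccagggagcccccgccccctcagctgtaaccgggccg
GCC2 holds CCAAT and CCDC186 holds both motifs in reverse. The G and C share was 66.4% in GCC2 and 73.2% in CCDC186. Of the 71 genes that rose with their brightest cluster, 55 had such a sequence. CCAAT stood in 34.5% of these and in 34.4% of the 14237 sequences of all measured genes, and TGACG in 27.3% and 26.0%. The whole CREB site TGACGTCA, which holds TGACG, stood in 3.64% (2 genes) and 2.37%. AGAACA, 1 arm of an androgen receptor site, stood in 5.45% (3 genes) and 9.08%, and the whole androgen receptor site, that run and its reverse complement 3 bases apart, in none of either. These shares are descriptions of 1 window, and a match is no proof of a site.

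Genes of the centrosome held 7 of the rises. The centrosome organizes microtubules and anchors the cilium, and satellites are granules that carry proteins to it. They were 7 of 39 measured genes of a list, in which none fell and 32 did not pass. The median log2 fold change was 0.16, with 31 members above 0. By replicate the median of the list was 0.19, 0.00 and 0.27. LRRCC1, a centrosomal protein, read 6.37, 5.94 and 6.57 with F and 5.38, 5.80 and 4.91 with V, without overlap (log2 fold change 0.93, SE 0.259). AKAP9, a scaffold of the Golgi and the centrosome, rose by 0.85, CEP290, which gates the entry to the cilium, by 0.77, CEP162 by 0.69, CEP112 by 0.65, CEP135 by 0.63 and PIBF1, a satellite protein, by 0.62.

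CEP112 was the most even of the 7. It read 6.83, 6.37 and 6.76 with F and 6.05, 6.01 and 5.96 with V, so that the V arrays were nearly equal and every F array lay above them (SE 0.138). CEP112, CEP162 and PIBF1 differed by over 1.2-fold in every replicate. CEP290 was at the other end, at 5.53, 4.44 and 6.14 with F and 4.57, 4.65 and 4.59 with V, where F replicate 2 lay below all V arrays, and without F replicate 3 its fold change was 0.38. AKAP9 had 0.55 without that array, CEP112 0.56 without F replicate 1, CEP135 0.42 without V replicate 3 and PIBF1 0.56 without F replicate 3, and none of these passed. CEP290 was lost without any 1 array but F replicate 2, AKAP9 also without F replicate 1 (0.71), CEP135 without F replicate 3 (0.57) and PIBF1 without V replicate 1 (0.56). PCM1, the core protein of the satellites, had 0.50 and did not pass with all arrays. Of 29 genes of intraflagellar transport, the traffic within cilia, DYNC2H1 alone rose. This motor of the return path read 6.64, 6.35 and 6.90 with F and 5.99, 6.14 and 5.89 with V (log2 fold change 0.62, SE 0.158). Its second cluster had 0.33 and did not pass, and the first was lost without F replicate 3 (0.49) or V replicate 3 (0.56).

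**Figure D3:**
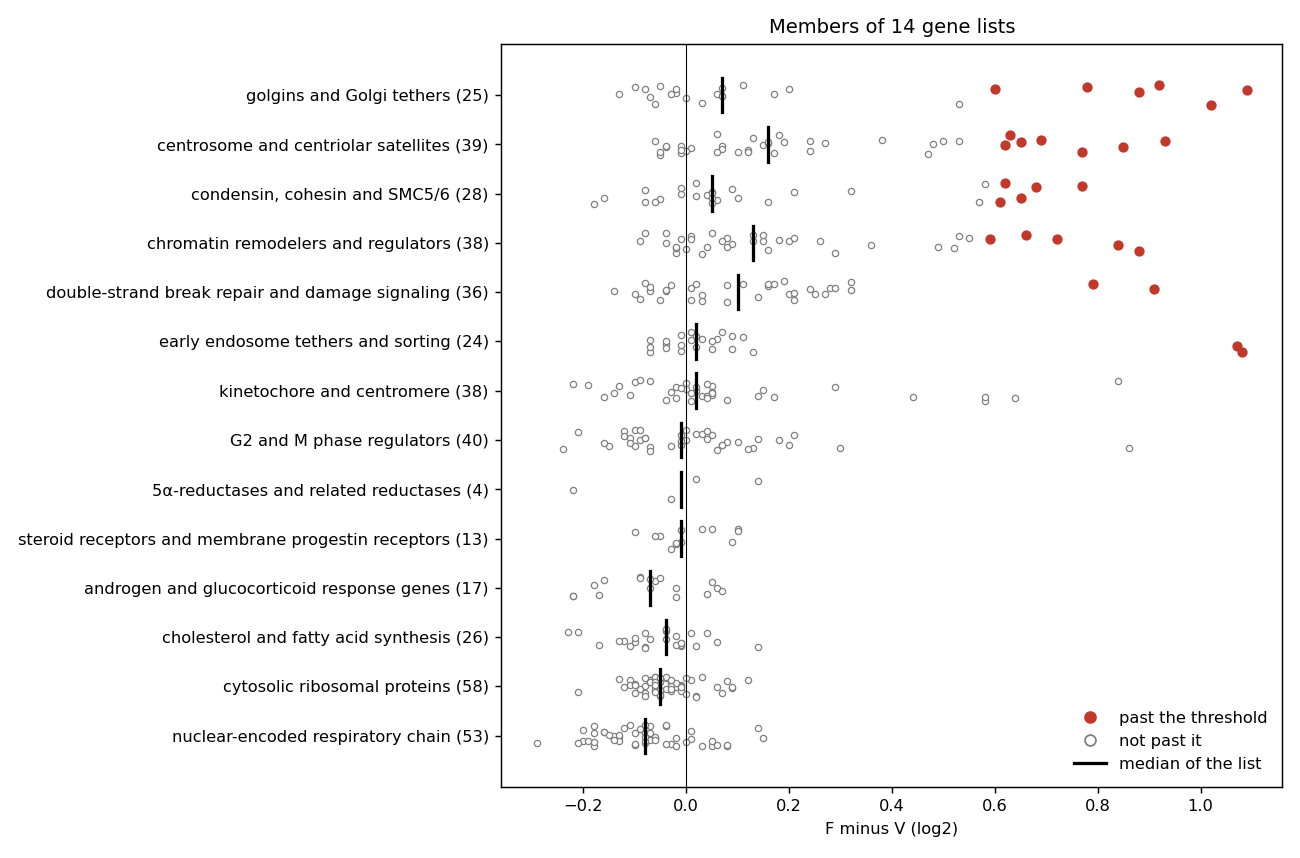
F minus V (x axis, log2) of each measured member of 14 gene lists, with the number measured in brackets, members past the threshold in red, the others open and the list's median as a bar. The centrosome list holds 7 red points and a median of 0.16, and the lists of steroid genes and of ribosomal and respiratory chain proteins hold none.

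Complexes that hold and fold chromosomes formed another group. SMC proteins are the arms of condensin, which compacts chromosomes, of cohesin, which holds sister chromatids together, and of the SMC5/6 complex, which works in repair. Of 28 measured genes, 5 rose, none fell and 23 did not pass, with a median of 0.05. SMC4 of condensin read 8.01, 8.15 and 8.29 with F and 6.82, 8.13 and 7.19 with V (log2 fold change 0.77). SMC2, its partner, read 7.29, 7.62 and 7.45 with F and 6.49, 7.49 and 6.33 with V (0.68). SMC6 rose by 0.62, SMC3 of cohesin by 0.61 and NIPBL, which loads cohesin, by 0.65.

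In the 4 SMC genes the spread lay in the V arrays. The F arrays of SMC4 spanned little (SD 0.14), and V replicate 2 reached the F arrays (SD 0.675 over the V arrays). V replicate 2 also reached the F arrays in SMC2 and SMC6, whereas in SMC3 it lay just below them, at 8.02 beside an F array at 8.07. SMC2, SMC3 and SMC6 had SDs of 0.162, 0.08 and 0.102 over the F arrays and 0.629, 0.492 and 0.541 over the V arrays. NIPBL varied on both sides, at 9.16, 8.54 and 9.18 with F and 8.10, 8.82 and 8.01 with V. Without V replicate 1 the fold changes were 0.49 in SMC4, 0.54 in SMC2 and 0.41 in SMC6, and without V replicate 3 that of SMC3 was 0.37, and none of these passed. Each of SMC2, SMC4 and SMC6 was also lost without F replicate 2, F replicate 3 or V replicate 3, SMC3 without F replicate 3, and NIPBL without F replicate 1 or 3 or V replicate 1 or 3, where it had 0.50 to 0.55. ESCO1, which acetylates cohesin, and SMC5 had 0.58 and 0.57 with all arrays, just short of the threshold.

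Of 38 chromatin remodelers and regulators 5 rose, and the median was 0.13, with 30 members above 0. ATRX, a remodeler that places a histone variant at repeats and telomeres, read 8.70, 7.67 and 8.85 with F and 7.53, 7.78 and 7.27 with V in its brighter cluster (log2 fold change 0.88, SE 0.286). Its second cluster had 1.06. PHF3 rose by 0.84, HMGN5, which binds nucleosomes, by 0.72, PHIP by 0.66 and BDP1, a factor of RNA polymerase III, by 0.59, the smallest rise named here. HMGN5 was free of overlap, at 5.83, 5.70 and 6.20 with F and 4.84, 5.46 and 5.25 with V. PHF3 had 0.66 without F replicate 3, HMGN5 0.55 without V replicate 1, PHIP 0.44 without V replicate 3 and BDP1 0.46 without F replicate 3, and none of these passed. HMGN5 was also lost without F replicate 3 (0.58), PHIP without F replicate 1 (0.57) and BDP1 without F replicate 1 or V replicate 1 or 3.

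Repair and replication gave single genes. RAD50, an SMC-like protein that bridges broken DNA ends, read 8.65, 8.26 and 8.86 with F and 7.52, 8.04 and 7.48 with V, without overlap (log2 fold change 0.91, SE 0.206). BOD1L1, which protects stalled replication forks, rose by 0.79. They were 2 of 36 genes of double-strand break repair, whose median was 0.10. RIF1, which sets the timing of replication, was the 1 of 54 genes of S phase to rise past the threshold, at 8.28, 7.67 and 8.44 with F and 7.11, 7.81 and 7.04 with V (log2 fold change 0.81). REV3L, the catalytic subunit of a polymerase that copies past lesions, was the 1 of 14 translesion genes, at 7.71, 7.25 and 7.83 with F and 6.72, 7.28 and 6.85 with V (0.65). Without F replicate 3 or V replicate 1 REV3L had 0.53 and did not pass, whereas RAD50, RIF1 and BOD1L1 passed without any 1 of the 6 arrays.

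Several other lists held 1 riser each. TPR, the basket protein of the nuclear pore, read 8.47, 7.65 and 8.48 with F and 7.13, 7.74 and 7.06 with V (log2 fold change 0.89, 1 of 34 genes). ESF1, which works on ribosomal RNA in the nucleolus, read 6.20, 6.01 and 6.64 with F and 5.22, 5.89 and 5.24 with V (0.84, 1 of 43 genes). EIF5B, which joins the ribosomal subunits, read 8.09, 7.93 and 8.43 with F and 6.74, 7.89 and 6.99 with V (0.94, 1 of 33 initiation factors). In each the V array of replicate 2 stood near its F array. RB1CC1, a scaffold that starts autophagy, rose by 0.96 (SE 0.237), at 8.38, 7.91 and 8.44 with F and 7.11, 7.81 and 6.92 with V, and was 1 of 35 autophagy genes. PPIG, a cyclophilin of nuclear speckles, rose by 0.74 and was 1 of 36 splicing genes, and without F replicate 3 it had 0.58 and did not pass.

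Genes of mitosis did not pass as a group. Of 40 regulators of G2 and M phase none passed, and the median was -0.01. By replicate their median was 0.10, -0.15 and -0.02. Of 38 kinetochore genes none passed, and of 38 kinesins KIF18A alone rose, a motor that damps chromosome movement, at 7.55, 7.51 and 7.81 with F and 6.52, 7.61 and 6.64 with V (log2 fold change 0.70). With the replicate number as a block 4 more genes of these lists passed. They were KIF20B (0.86), ASPM (0.86), CENPF (0.84) and CENPE (0.64), which act in cytokinesis, at the spindle poles and at the kinetochore. FAM111B (0.84) and the taste receptor gene TAS2R20 (0.71) also passed only there. CENPF had an SD of 0.14 over the F arrays and of 1.07 over the V arrays. Without V replicate 2 the medians of the G2 and M list and of the S phase list were 0.27 and 0.19, and without F replicate 2 they were -0.26 and -0.18, so that their sign went with single arrays. KIF18A did not pass without V replicate 1 (0.49), V replicate 3 (0.56) or F replicate 3 (0.60).

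The 10 genes that the study took forward to RT-qPCR were chosen on these arrays, so that their counts are no independent evidence. Of them 8 rose in the limma fit used here, and CCDC91 and PCM1 did not pass. The study's own array values differ, with no change under F listed for TPR, RIF1, REV3L and CCDC91 and a rise listed for PCM1. By RT-qPCR the study reports that F alone raised RIF1 and that DYNC2H1 followed its arrays. For ROCK1, ROCK2, RAD50, TPR, PCM1 and CCDC91 it reports no change with F alone. It describes rises of ESF1 and REV3L under other treatments. The rises read here for several of these genes were thus not seen with F by that measure. On the arrays the median log2 fold change of the 10 genes was 0.77, and by replicate it was 0.99, 0.17 and 1.13.

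A few clusters rose evenly in all 3 replicates. The one that passed the adjusted p in limma is shared by 8 zinc finger genes (ZNF730, ZNF728, ZNF676, ZNF430, ZNF208, ZNF99, ZNF85 and ZNF43), whose near-equal sequences its probes cannot separate. It read 10.98, 10.98 and 11.01 with F and 10.20, 10.27 and 10.22 with V, a gap far wider than the spread on either side (log2 fold change 0.76, SE 0.0733, limma adjusted p = 0.00289). Which of the 8 genes gave the signal is uncertain. Against the same V arrays the cluster was also higher with 3α-THP (0.64) and with P4 (0.37), each at 10 nM. F minus 3α-THP was 0.12 and F minus P4 0.39 on the log2 scale. A cluster shared by the small nucleolar RNA SNORA1 and its host gene TAF1D read 5.19, 5.66 and 5.44 with F and 4.41, 5.03 and 4.83 with V. Its log2 fold change was 0.68 (SE 0.168), with a limma adjusted p of 0.833, or 0.0332 with the replicate block. It had 0.51 without V replicate 1 and 0.56 without F replicate 2 and did not pass the threshold there.

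In all, 60 clusters were higher with F by over 1.2-fold in each replicate (0.283%) and 29 were lower (0.137%). Of these 15 are among the 81 that rose and 2 among the 3 that fell. PWAR6, a non-coding RNA of the Prader-Willi region, read 5.34, 4.93 and 5.65 with F and 4.59, 4.37 and 4.82 with V (log2 fold change 0.71). ANKRD36, an ankyrin repeat gene with several near copies, read 7.96, 7.25 and 7.76 with F and 6.88, 6.86 and 6.74 with V (0.83, SE 0.186), and 2 more clusters shared with its copies rose by 0.60 and 0.59. Without F replicate 3 these 2 had 0.43 and 0.41, without F replicate 1 both had 0.54 and without V replicate 2 both had 0.51, and they did not pass. DPY19L2P1, a pseudogene, read 6.57, 6.53 and 6.86 with F and 6.21, 5.87 and 6.0 with V (0.63). Their replicate 2 differed by 0.56, 0.39 and 0.66. PWAR6 and DPY19L2P1 had 0.54 and 0.53 without F replicate 3 and did not pass, nor did DPY19L2P1 without V replicate 2 (0.55). Among clusters that moved in every replicate without reaching the threshold were the endoplasmic reticulum protein ERP29 at -0.51 (SE 0.115), the antiviral membrane protein BST2 at -0.56 (SE 0.176) and the RNA polymerase III subunit POLR3GL at -0.38 (SE 0.0863), which were picked here for their evenness after their values were seen.

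Clusters named for 3 microRNA genes rose. Their probes read the hairpin or its host transcript, and the mature microRNA was not measured. MIR100 read 4.56, 4.02 and 4.95 with F and 3.87, 3.51 and 3.80 with V (log2 fold change 0.79, SE 0.331), at a dim level, and it did not pass without F replicate 1 (0.76), F replicate 3 (0.57), V replicate 2 (0.68) or V replicate 3 (0.82). MIR181B1 read 8.37, 7.21 and 8.30 with F and 7.33, 7.15 and 7.38 with V (0.68), and MIR186 read 5.98, 5.31 and 6.27 with F and 5.37, 5.30 and 5.12 with V (0.59). These 2 were picked after their values were seen. MIR181B1 passed only with F replicate 2 left out among the fits without 1 array, and had 0.47 to 0.73 in the 5 others. MIR186 did not pass without F replicate 1 (0.53), F replicate 3 (0.38), V replicate 2 (0.61) or V replicate 3 (0.52). 1 mature form of each is shown, from RefSeq (GRCh38.p14), because their seeds, bases 2 to 8 in capitals, help to decide which messages they bind.
hsa-miR-100-5p: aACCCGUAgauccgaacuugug
hsa-miR-181b-5p: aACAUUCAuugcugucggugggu
hsa-miR-186-3p: gCCCAAAGgugaauuuuuuggg
The 3 seeds shown differ from each other, and other mature forms of these microRNAs were not compared. Of the 3, MIR100 alone had all F arrays above all V arrays and a difference over 1.2-fold in each replicate.

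Some neighbouring genes of 2 families rose, of which all but TAS2R31 were picked after their values were seen. SAMD9 and SAMD9L, adjacent antiviral genes on chromosome 7, had log2 fold changes of 1.03 and 0.64, and SAMD9 read 9.02, 8.13 and 9.02 with F and 7.45, 8.27 and 7.35 with V, with replicate 2 lower with F. Of the bitter taste receptors on chromosome 12, TAS2R31 read 5.44, 4.78 and 5.81 with F and 4.18, 4.67 and 4.26 with V (0.97, SE 0.246), and TAS2R19, TAS2R45 and TAS2R50 rose by 0.70, 0.68 and 0.59. They were 4 of 24 measured genes of the family, of which 20 did not pass, TAS2R20 among them (0.71), and the median of the 24 was 0.15. SAMD9 and TAS2R31 passed without any 1 of the 6 arrays. Without F replicate 3 SAMD9L had 0.50, TAS2R19 0.52, TAS2R45 0.37 and TAS2R50 0.51, and none of these passed, nor did they without F replicate 1 (0.52, 0.60, 0.70 and 0.50). SAMD9L, TAS2R45 and TAS2R50 were also lost without V replicate 3 (0.55, 0.50 and 0.57), TAS2R19 without V replicate 2 (0.61) and TAS2R50 without V replicate 1 (0.51). The receptors are near copies of each other, so that their probes may share signal. The interferon-stimulated genes as a list did not follow SAMD9. Of 30 measured none passed, and the median was 0.02.

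The 3 clusters that fell were read at low levels, between 2.38 and 6.38. DOC2B, a calcium sensor of exocytosis, read 4.70, 4.53 and 4.25 with F and 5.53, 5.16 and 4.96 with V (log2 fold change -0.72, SE 0.221). Its second, brighter cluster had -0.15 (SE 0.192) and did not pass. VTRNA1-1, a vault RNA, a short RNA of a large cytoplasmic particle, read 4.59, 5.21 and 5.08 with F and 5.36, 6.38 and 5.29 with V (-0.72, SE 0.266). LIPK, a lipase of the skin, read 2.38, 2.60 and 2.78 with F and 3.11, 3.29 and 3.34 with V (-0.66, SE 0.169). No F array reached a V array in any of the 3.

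Each fall rested on 1 array or more. Without V replicate 1 DOC2B had -0.56, without V replicate 2 VTRNA1-1 had -0.37 and without F replicate 1 -0.53, and without F replicate 1 LIPK had -0.56, and none passed. The vault list held 5 measured genes, with a median of -0.30 and none above 0. VTRNA1-3 had -0.30, with F arrays averaging 6.52 and V arrays 6.83, and did not pass. Among clusters with a mean level of at least 5 over the 12 arrays, 1 fell.

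The genes of steroid action themselves did not pass. SRD5A1, the type 1 enzyme, read 7.66, 8.03 and 7.93 with F and 7.95, 7.75 and 8.02 with V, with overlapping groups (log2 fold change -0.03). SRD5A2, the type 2 enzyme, read 3.84, 4.0 and 3.89 with F and 4.22, 4.01 and 4.16 with V, near the bottom of the range. No F array reached a V array there, but the log2 fold change of -0.22 fell short of 1.5-fold. None of the 4 measured genes of 5α-reductases and their relatives passed, nor of 38 other genes of steroid synthesis and metabolism (median -0.06), 13 steroid receptors and membrane progestin receptors (median -0.01) or 17 androgen and glucocorticoid response genes (median -0.07). PGR, the progesterone receptor, averaged 3.95 on the F arrays and 3.96 on the V arrays, both near the bottom of the range. TSPO, which helps cholesterol into mitochondria, averaged 6.83 with F and 7.02 with V, and CYP19A1, the aromatase that makes estrogens, averaged 3.74 and 3.93. None of 12 GABA-A receptor subunits, the neuronal receptors on which 3α-THP acts, passed (median -0.04).

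Lists of housekeeping and signaling genes held no member past the threshold. None of 58 cytosolic ribosomal proteins (median -0.05), 53 nuclear-encoded respiratory chain genes (-0.08), 26 genes of cholesterol and fatty acid synthesis (-0.04), 31 of glycolysis and hypoxia (0.01), 26 of the unfolded protein response (-0.03), 33 of the extracellular matrix (-0.02), 35 integrins and matrix metalloproteinases (-0.04), 33 growth factors and receptor kinases, 20 CREB and CEBP factors (-0.03) or 20 genes of the p53 pathway passed. CDKN2A averaged 5.22 with F and 5.02 with V. Within these lists the values of the ribosomal proteins spanned -0.21 to 0.12, and those of the respiratory chain -0.29 to 0.15. Over all 37 lists, 1074 measured genes, 39 rose and 1 fell, and 18 lists held no gene past the threshold.

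The 81 clusters were also read on the other arrays. Their median difference from the mean of the V arrays was 0.83, 0.34 and 1.01 on the F arrays (100 nM), 0.71, 0.82 and 1.00 on the 3α-THP arrays (10 nM), 0.04, 0.18 and 0.65 on the P4 arrays (10 nM) and -0.11, 0.32 and -0.17 on the V arrays themselves. P4 replicate 3 stood above F replicate 2. All these comparisons with V share the V arrays that chose the clusters. F minus P4 shares the F arrays with that choice, and its medians by replicate were 0.79, 0.19 and 0.36. F minus 3α-THP had medians of 0.13, -0.50 and 0.02.

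**Figure D4:**
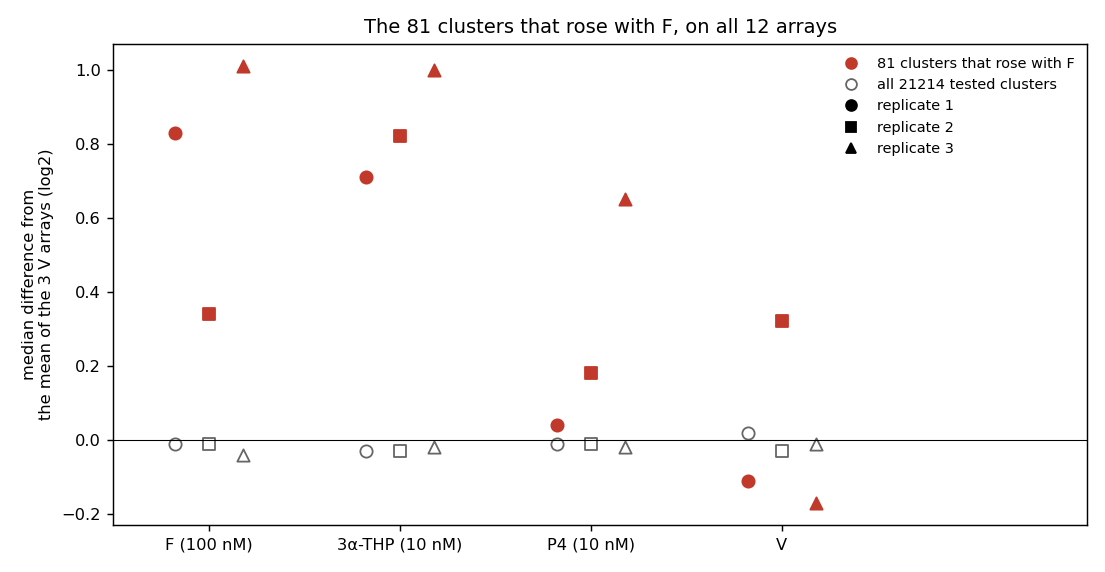
Median difference of each of the 12 arrays from the mean of the 3 V arrays (y axis, log2) for the 81 clusters that rose with F (filled) and for all 21214 tested clusters (open), with symbols for the replicate number. F replicate 2 (0.34) lies beside V replicate 2 (0.32), and the open symbols stay within -0.04 to 0.02.

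The comparison of 3α-THP with P4, both at 10 nM, uses neither F nor V arrays. In it the 81 clusters had a median of 0.56 on the log2 scale, were above 0 in 81 of 81 and over 1.5-fold higher in 37, beside a median of -0.01 over all clusters. By replicate the medians were 0.63, 0.66 and 0.34. Tested against P4 at its lower dose, F differed past the threshold in 7 of the 81 clusters, and in 11 of all (0.0519%), or in 12 and 19 with the replicate block. GCC2, for example, had 0.64, EEA1 0.74, RAD50 0.62 and HMGN5 0.61 in F minus P4. Against 3α-THP at its lower dose, none of the 81 did, and 12 of all clusters differed (0.0566%), or none and 14 with the block. In that contrast the same genes had -0.06, -0.09, -0.12 and -0.04. Both contrasts were read at the unadjusted threshold. No cluster named in this paragraph passed the adjusted p in either. Of the clusters past the threshold with F and not with 3α-THP, DOC2B was -0.60 (SE 0.221) in F minus 3α-THP and passed there, while IGSF9B had 0.36, PWAR6 0.24, KCNMB3 0.20, DPY19L2P1 0.43, MIR100 0.10, LIPK -0.28 and VTRNA1-1 -0.16 and did not. Neither did the pseudogene ADAM20P1, at 0.05, nor a cluster shared by ANKRD20A12P, ANKRD20A8P and ANKRD20A5P, at 0.04. IGSF9B, an adhesion protein, read 6.29, 5.35 and 5.40 with F and 4.66, 5.12 and 4.89 with V, its second cluster had -0.01, and without F replicate 1 the first had 0.48 and did not pass.

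Genes that rose were long. The median span on the genome was 86766 bases over the 71 genes and 24474 bases over all measured genes. The measured genes were split into 5 equal groups by span. Among the shortest 0.218% rose, in the next 3 groups 0.0816%, 0.163% and 0.489%, and among the longest 0.979%. The median fold change of all genes followed span too, at -0.05, -0.05, -0.02, 0.00 and 0.02 on the log2 scale. In replicate 2 these medians ran over -0.01, -0.01, -0.01, 0.01 and 0.01, and in replicate 3 over -0.07, -0.06, -0.04, 0.00 and 0.04. The trend with gene span was thus flatter in replicate 2, where the rises were small, than in replicate 3, and its part in the rises was not tested.

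**Figure D5:**
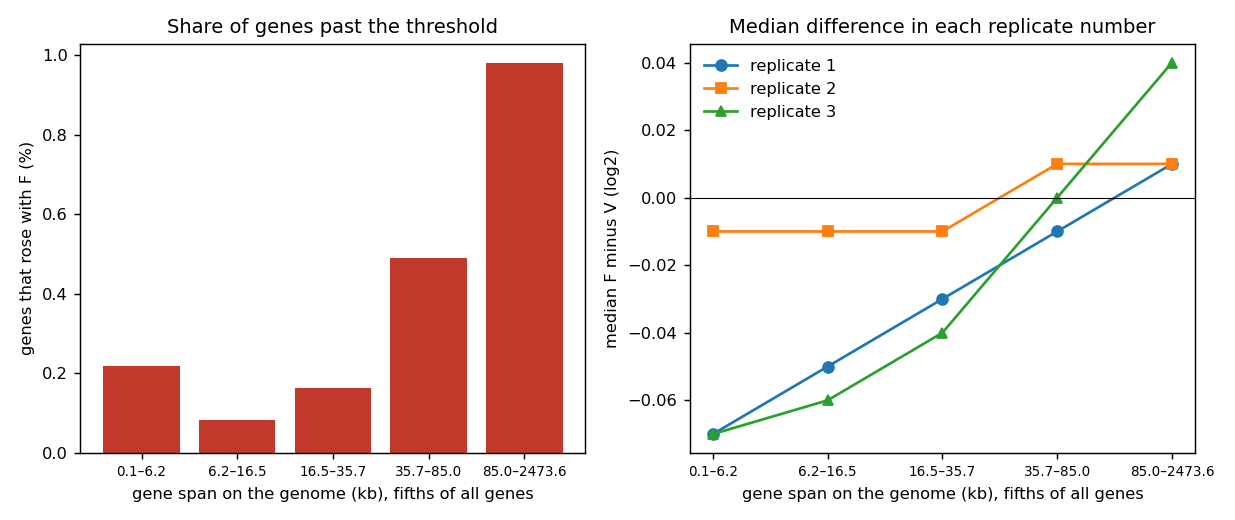
Share of genes that rose with F (left, %) and the median F minus V in each replicate (right, log2) in 5 equal groups of all genes by their span on the genome (x axis, kb). The share was 0.979% among the longest genes and 0.218% among the shortest, and the line of replicate 2 is the flattest.

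The genes that rose were read at moderate levels, with a median of 6.83 on the V arrays, beside 6.39 for all genes, and 12.7% of them lay under 5 there, beside 25.1% of all. Protein-coding genes were 91.5% of them (65 of 71) and 91.8% of all. The median G and C share of the 250 bases before the start was 59.2% over the 55 found, and 62.8% over all. The 71 that rose were of 18417 measured genes in all. On chromosome 2, 9 of 1155 rose (0.779%). None of the 71 lay on chromosomes 19 (1308 genes), 16 (759), 22 (423), 21 (236) or Y (23). At so low a share in all, a chromosome with few genes can hold none, and no difference between chromosomes was tested. Clusters of several genes, such as the shared zinc finger cluster that passed the adjusted p, did not enter these counts. At the edge of the threshold, BDP1 and ZNF721 had 0.59 and lay just inside, and NEMF and SEPTIN7P13 had 0.58 and lay just outside.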

How the data were processed

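The authors deposited 1 table of log2 values per transcript cluster of Affymetrix Human Gene 1.0 ST arrays, normalized between arrays. Per the labels it was made with Affymetrix Expression Console 1.4, and the methods also name quantile normalization and robust multiarray averaging. The genome build and the background correction are not given in the sources used here. The values run from 1.25 to 14.1 with none missing. The number of arrays limits the precision of every value.

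The fit used limma 3.58.1 (R 4.3.3) over all 12 arrays, with 1 mean per treatment and moderated variances, and F minus V was taken as a contrast. A cluster past the threshold has a fold above 1.5 and an unadjusted p below 0.05, and p values were adjusted by Benjamini-Hochberg over 21214 clusters with a gene name. Clusters with 1 gene numbered 19460 and with several 1754. Clusters with no gene name, 12083, were counted apart, and 703 of the tested clusters share all values with another. In gene lists a gene enters with its brightest cluster. The fit was tested on simulated data.

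Arrays of the same replicate number resembled each other more than arrays of different numbers did. Deviations from treatment means correlated at 0.132 to 0.631 in all 18 pairs of arrays with the same number, with a median of 0.40, and at a median of -0.245 in 36 pairs with different numbers. Deviations sum to 0 within a treatment, so that the negative values follow in part from the positive ones. Pairs of numbers 1 and 3 ran from -0.0375 to 0.226, and the lower values were in pairs with number 2. The replicate number was used as a block in an alternative fit, and the blocked value stands beside a result where it changes it.

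Named genes were drawn from those past the threshold without overlap with the largest changes, the members of each list past the threshold and its smallest p values, the genes of steroid action, the genes of the RT-qPCR, those past the threshold with F and not with 3α-THP or only with the block, and those at its edges. Others are marked. The members and gene lists were chosen with earlier results of these data known. Protein sequences were not used here, and the RT-qPCR of the study is cited from its text alone. The members of 1 gene list are not reported here. Promoter, microRNA and gene coordinates are from RefSeq (GRCh38.p14).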

Additional observations from a re-analysis of the deposited data

Results flagged for a closer look

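Clusters with no gene name, which the comparison does not use, passed the unadjusted threshold at a higher share than those with a name. In a fit over all clusters of the table, 230 of 12083 such clusters passed the threshold with F (1.9%), of which 148 were higher and 82 lower than with V. In the same fit 81 of the 21214 clusters with a gene name did (0.382%), 78 higher and 3 lower. The clusters with no name were dimmer, with a median level of 4.79 beside 6.37, and their median SE was 0.135 beside 0.112. The part of level and spread in this count was not tested.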

How the results depend on the processing

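The log2 fold changes of the 84 clusters past the threshold kept their sign in every alternative. The clusters were chosen on these same arrays by a fold over 1.5, which makes a change of sign unlikely. With the replicate block, the F and V arrays alone, the variance prior or the analysis of variance, the log2 fold change itself cannot change. The count of 84 stayed within 1.5 times under the replicate block, fixed (90) or random (87), the F and V arrays alone with the block (81) or without (85), both renormalizations, the variance prior, 1 cluster per gene and the methods' unpaired analysis of variance (62). It was 220 (212 rose, 8 fell) without the arrays numbered 2, 162 (155 and 7) with array weights, 648 (426 and 222) at a fold of 1.2 and 6 (6 and 0) at a fold of 2. Leaving out 1 array gave 44 to 167 (35 to 159 rose, 5 to 9 fell). With the replicate block, a setting chosen after seeing the data, leaving out 1 array gave 38 to 191 (30 to 179 rose, 7 to 14 fell), lowest without V replicate 3 and highest without V replicate 2. Within these ranges, F replicate 2 left out gave 164 (157 rose), F replicate 1 left out gave 50 that rose and 10 that fell, and V replicate 2 left out gave 12 that fell. Without dim clusters 1 fell. Of the 84 clusters, 27 passed without any 1 of the 6 arrays and 17 in every setting that tests all clusters.

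At the adjusted p, 1 cluster passed in limma, and 2 did with the replicate block, 0 with the F and V arrays alone, with or without the block, 0 with 1 cluster per gene, a setting that does not test the shared zinc finger cluster, 6 without the arrays numbered 2 and 1 to 178 with the block and 1 array left out. The 40 genes of the lists past the threshold were 72 at a fold of 1.2 and 4 at a fold of 2, and 21 to 58 with 1 array left out. At the unadjusted threshold F minus P4 had 19 clusters with the replicate block, against 11, and F minus 3α-THP had 14, against 12. In F minus V the block changed no call but those given in the text. The cause was not tested for any of these. The 3 arrays per treatment limit the differences that could be called, and genes with a mean under 5 lie near the bottom of the measured range.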
